A study of Coturnix japonica with 24 samples.

Results

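The genes described here encode the parts of the cyclic AMP and G protein relay: adenylyl cyclases, phosphodiesterases, protein kinase A subunits, A-kinase anchoring proteins, the alpha, beta and gamma subunits of G proteins, and RGS proteins. They were chosen by symbol from the array's annotation (symbols starting with ADCY, PDE followed by 1 to 5 or 7 to 11, PRKAC, PRKAR, AKAP, RGS followed by a digit, GNA, GNB1 to GNB5 and GNG followed by a digit), not by their measured values. In all, 88 of the 13009 genes with a single symbol met the rule. The rule also caught 4 genes of other function, PDE12, PDE4DIP, RGS7BP and RGS9BP. They form a role of their own below, but the counts and medians over all members include them.

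The tissue was the mediobasal hypothalamus of male Japanese quail (Coturnix japonica), the region next to the pituitary stalk. Long-day birds spent 2 weeks under 20 h of light and 4 h of dark, and short-day birds spent the same 2 weeks under 6 h of light and 18 h of dark. All birds were 8 weeks old when the groups were formed and had all lived under short days for the 4 weeks before. Each photoperiod was sampled at zeitgeber times (ZT) 2, 6, 10, 14, 18 and 22 h, with 2 arrays per time and RNA of 3 birds pooled on each array, so that single birds cannot be told apart within a pool. ZT is read here as hours after lights on. At ZT10, ZT14 and ZT18 long-day birds were then in light and short-day birds in the dark. Cells of many kinds are mixed in such tissue, so fewer cells of a type and less RNA per cell cannot be told apart.

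A receptor coupled to the stimulatory alpha subunit Gs turns on adenylyl cyclase, which makes cyclic AMP from ATP. Cyclic AMP frees the catalytic subunits of protein kinase A from their regulatory subunits, and A-kinase anchoring proteins hold the kinase at chosen places in the cell. Inhibitory alpha subunits (Gi) restrain the cyclases, phosphodiesterases break cyclic AMP or cyclic GMP down, and RGS proteins speed up GTP hydrolysis by alpha subunits and so end their signal. In quail, thyrotropin from the pars tuberalis acts on its receptor in the mediobasal hypothalamus through Gs and cyclic AMP as part of the long-day response. No sequences are shown, since none of these genes' sequences was given with the data.

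The values are chicken-array intensities, given below centred by array median, so levels are compared between birds for the same probe set and never between genes. The median deposited intensity of the 24 arrays ran from 10.9 to 21.05, a ratio of 1.93, and 38.1% to 49.6% of an array's probe sets exceeded background, the 95th percentile of 746 probe sets without the chicken prefix. The arrays numbered 1 were brighter than those numbered 2 in 12 of 12 groups. The second long-day ZT14 array had the lowest median rank correlation with the others (0.713) and the highest 3'/5' ratio of the ACTB control probes (2.21 on the log2 scale), a sign of RNA quality. That ratio averaged 1.84 ± 0.152 in long days and 1.69 ± 0.166 in short days (SD, n = 12 each), and its part in the results was not tested. Of 7 neuronal markers 6 were above background on all 24 arrays, as were 7 of 10 hypothalamic ones. The neuronal ones summed to 16426 to 21762 in long days and 15964 to 20412 in short days. The hypothalamic ones summed to 3954 to 5747 in long days and 4980 to 7496 in short days. Of these POMC alone passed (-1.04 ± 0.14, adjusted p = 2.6e-04 by limma). The 3 glial markers summed to 2584 to 7844 in long days and 5889 to 8298 in short days, and none passed. The part of tissue mix in the values below was not tested. Of 5 photoreceptor and pineal markers none was above background on every array, and their summed intensity was 15.5 to 79.8 in long days and 36.3 to 97.9 in short days. Of 4 markers of the striatum, which expresses several of the signalling genes, PENK alone was above background on every array, with a mean of 4783 in long days and 4535 in short days. DRD2 and PPP1R1B were near background and FOXP1 was above it on 23 of 24 arrays, with long-day means of 16.8 (DRD2), 11.5 (PPP1R1B) and 33.0 (FOXP1) and short-day means of 14.5 (DRD2), 14.3 (PPP1R1B) and 39.9 (FOXP1). The 6 markers of anterior pituitary and pars tuberalis summed to 1029 to 2997 in long days and 235 to 1473 in short days, and of them TSHB (4.54 ± 0.29, adjusted p = 2.4e-09 by limma) and CGA (1.85 ± 0.13, adjusted p = 5.6e-09) rose. GH, PRL, PITX1 and POU1F1 did not pass, and the part of pars tuberalis tissue in the values below was not tested.

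Most of the 88 genes were above background on 12 or more arrays. The rule reaches only genes with a probe set under a single symbol. Among relay genes, ADCY5, PRKACA, PRKAR2A and PDE4A had none. On their brightest probe sets, 49 of the 88 genes lay above background on all 24 arrays, 22 on 12 to 23 arrays, 16 on 1 to 11 arrays and 1, the gamma subunit GNG10, on none. The filter on low values left 83 for testing and left out AKAP5, GNAT1, GNB3, GNG10 and RGS18. These are tests by limma over 28829 probe sets. A difference is the log2(intensity + 1.497) mean of long-day arrays minus that of short-day arrays, and ± gives limma's moderated standard error (SE) unless said otherwise.

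The first comparison asked whether the relay differed by photoperiod when all times were averaged. None of the 83 tested genes passed at an adjusted p under 0.05, where 0.132% of all probe sets did (38 of 28829). At an unadjusted p under 0.05 there were 6 of 83, or 7.23%, beside 5.42% of all probe sets. The differences of the 83 ran from -1.03 to 0.54 with a median of -0.05, and 35 were positive. Over all probe sets the median was -0.01. The arrays set narrow limits for most of the tested genes. The 95% interval lay within 1 log2 unit of 0, a 2-fold difference either way, for 71 of 83 genes (85.5%). The share of all probe sets was 65%. Within 0.5 there were 33 genes (39.8%), beside 15.7% of all probe sets, which include many dimmer ones. The median SE was 0.207 for the 83 genes and 0.311 for all probe sets. All 49 genes above background on every array were among the 71, with differences from -0.35 to 0.44 and a median SE of 0.160. The 12 genes whose interval reached past 1 log2 unit were AKAP7, AKAP8, AKAP14, AKAP17B, GNAT2, GNG12, PDE1A, PDE4C, PDE7A, PDE11A, RGS10 and RGS19, each dim on some arrays.

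**Figure D1:**
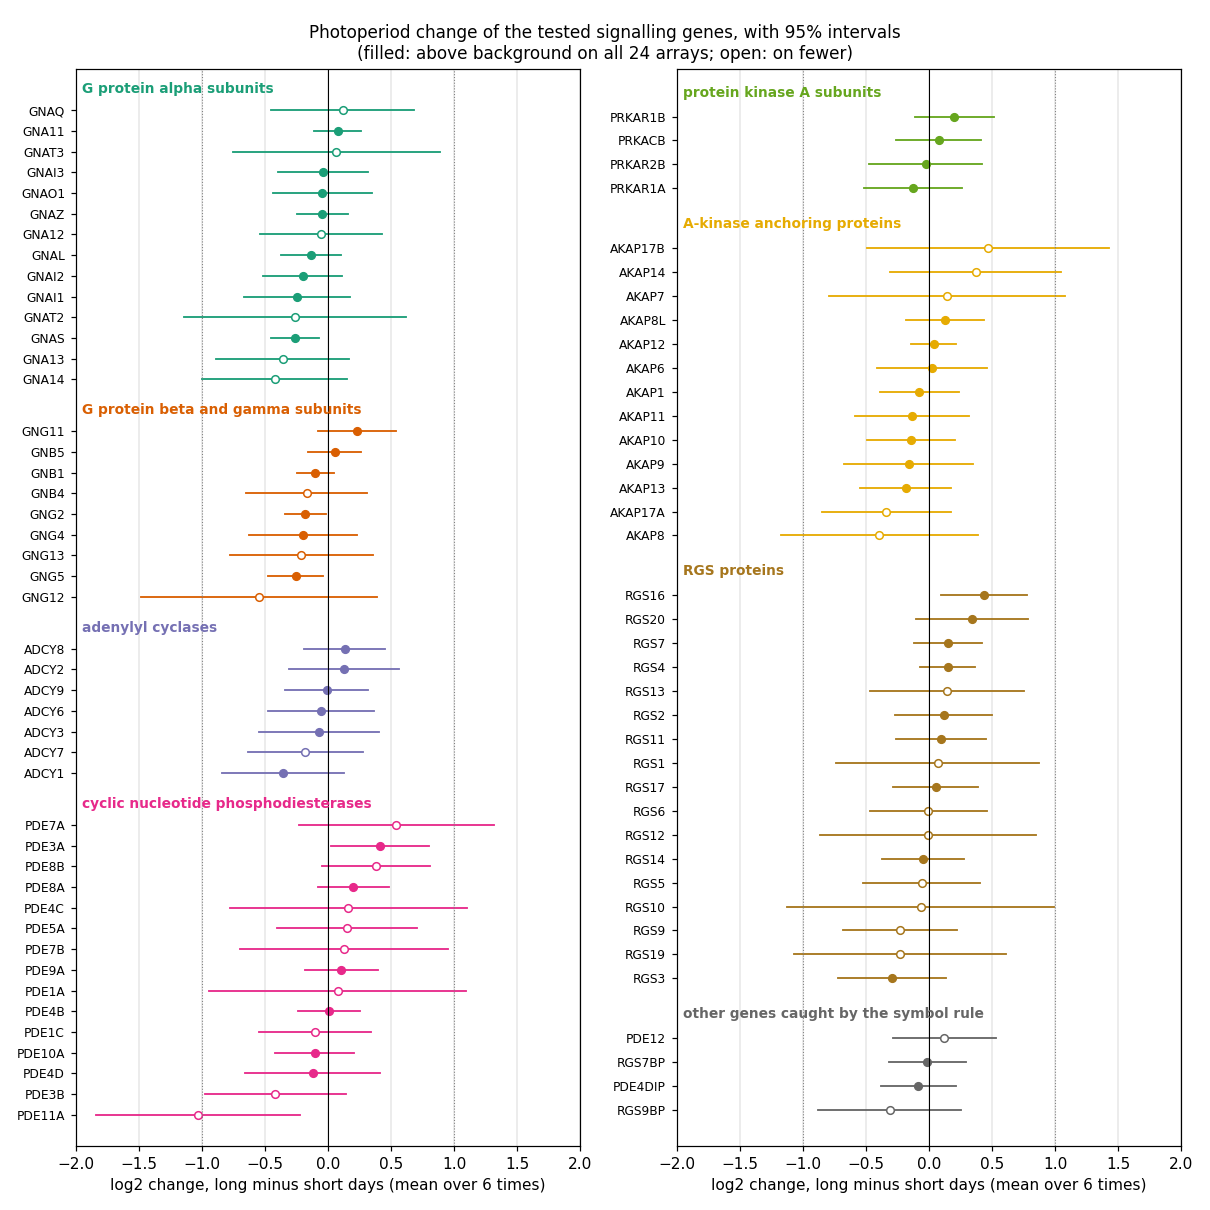
Photoperiod difference (log2, long minus short days, mean over 6 times) of the 83 tested genes by role, with 95% intervals from limma. Filled points were above background on all 24 arrays and open points on fewer; the differences run from -1.03 (PDE11A) to 0.54 (PDE7A).

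Among the 14 tested alpha subunits, 3 differences were positive, the median was -0.09 and the range -0.42 to 0.11. GNAS encodes the stimulatory subunit Gs that couples the thyrotropin receptor to the cyclases. On brightest probe sets it had the smallest p of all members, while dimmer probe sets of PDE4D and PDE9A had smaller ones. The GNAS intensity was 734, 1075 and 1324 in long days (lowest, median and highest of 12 arrays). In short days it was 1024, 1281 and 1477. The long-day arrays reached lower, and the groups overlapped. The difference was -0.26 ± 0.09, with a 95% interval of -0.46 to -0.07 and an adjusted p of 0.667 by limma. Of its 4 dimmer tested probe sets, 3 were also negative (-0.21, -0.19 and -0.16) and 1 was positive (0.18). With all its probe sets averaged GNAS stood at -0.02.

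The inhibitory subunits GNAI1 and GNAI2 were the only members with a long-day mean below the short-day mean at each of the 6 times, 2 of 83 (2.41%), beside 2.23% of all probe sets. GNAI1 was at 586, 1222 and 1790.4 in long days and at 852, 1213 and 2252 in short days. GNAI2 was at 144, 338 and 498 in long days and at 223, 383 and 444 in short days. In both genes the ranges of the photoperiods largely covered each other, and the lowest array was the second of long-day ZT14. The differences were -0.24 ± 0.20 for GNAI1 and -0.20 ± 0.15 for GNAI2, both with an adjusted p of 0.980 by limma, and that of the third inhibitory gene, GNAI3, was -0.04 ± 0.17. Without that array GNAI1 stood at -0.11, GNAI2 at -0.083 and GNAI3 at 0.082.

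GNAL, the Gs-like subunit of olfactory and striatal neurons, was at -0.13 ± 0.11. The subunits that act through phospholipase C stood at 0.11 ± 0.27 (GNAQ) and 0.08 ± 0.09 (GNA11). GNA11 was thus held between -0.11 and 0.26. GNAZ, another inhibitory subunit of neurons, was at -0.05 ± 0.10. The transducin genes of photoreceptors, GNAT1 and GNAT2, were near background: GNAT1 was not tested and GNAT2 was at -0.26 ± 0.42. The interval of GNAT2 ran from -1.14 to 0.62 on this scale. It reached past a 2-fold lower level in long days but not past a 2-fold higher one.

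In the beta and gamma subunits, which leave the alpha subunit as a pair on activation, 2 of 9 differences were positive, with a median of -0.18 and a range of -0.55 to 0.23. GNG5, a widely expressed gamma subunit, was at 339, 360.2 and 462 in long days and at 363, 445 and 539 in short days, a difference of -0.26 ± 0.11 (adjusted p = 0.823 by limma). Its long-day median lay just under the lowest short-day array, while the ranges overlapped. GNG2, a gamma subunit of the brain, was at 1492, 1643 and 1865 in long days and at 1569, 1924 and 2140.0 in short days, a difference of -0.18 ± 0.08 (adjusted p = 0.856 by limma). Its other tested probe sets were at -0.44 and 0.23. GNB1, the main beta subunit, had the smallest SE of the relay, -0.10 ± 0.07, which left a difference between -0.25 and 0.05 on this probe set. A second probe set of GNB1, above background on no array, was at 0.63, and the mean of both at 0.26. GNG11 stood at 0.23 ± 0.15. Neither GNB5, the beta subunit that pairs with RGS proteins (0.05 ± 0.10), nor GNG13 (-0.21 ± 0.27) passed.

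The 7 measured adenylyl cyclases lay between -0.35 and 0.13 with a median of -0.06, and 2 were positive. All but ADCY7 were above background on every array. ADCY1, a calcium-stimulated neuronal cyclase, had the largest difference of the 7, at 26.0, 52.1 and 86.6 in long days and at 29.9, 70.7 and 128 in short days, or -0.35 ± 0.23. ADCY8, also stimulated by calcium, was at 139, 189 and 232 in long days and at 102, 165 and 293 in short days, or 0.13 ± 0.16. The short-day range of ADCY8 enclosed the long-day range. ADCY2 was at 0.13 ± 0.21 and ADCY9 at -0.011 ± 0.16, the latter's interval running from -0.34 to 0.32.

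The 15 measured phosphodiesterases, which remove the second messenger, held both ends of the range: the median was 0.11 and 10 were positive. PDE3A, an enzyme of cyclic AMP breakdown that cyclic GMP inhibits, was at 44.7, 68.4 and 99.4 in long days and at 34.7, 48.4 and 88.6 in short days. Its long-day mean was above the short-day mean at 5 of 6 times, and the ranges overlapped. The difference was 0.41 ± 0.19 (adjusted p = 0.879 by limma), with a dimmer probe set of the same gene at 0.65. Its relative PDE3B was at -0.42 ± 0.27. PDE11A, which breaks down both cyclic nucleotides, was at 0.82, 11.4 and 34.3 in long days and at 4.31, 20.1 and 41.5 in short days, above background on 4 of 12 long-day and 7 of 12 short-day arrays. Its difference of -1.03 ± 0.39 (adjusted p = 0.737 by limma) came from near background, and was -1.94 in the arrays numbered 1 and -0.12 in those numbered 2.

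The cyclic AMP-specific phosphodiesterases PDE8A and PDE8B stood at 0.20 ± 0.14 and 0.38 ± 0.21. PDE8B was at 39.0, 57.8 and 93.7 in long days and at 18.8, 43.5 and 79.9 in short days, with the long-day mean above the short-day mean at 5 of 6 times. PDE4B, which neurons and glia use, was at 0.0074 ± 0.12, between -0.24 and 0.26. PDE4D was at -0.12 ± 0.26, PDE7B, near background, at 0.13 ± 0.40, PDE7A at 0.54 ± 0.37 and PDE10A, the phosphodiesterase known from striatal neurons, at -0.11 ± 0.15. None of these intervals, each on the brightest probe set, excluded 0. A dimmer probe set of PDE4D and one of PDE10A, given under other observations, had positive differences.

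The 4 measured protein kinase A subunits, above background on every array, lay between -0.13 and 0.20, 2 of them positive. The catalytic subunit PRKACB was at 431, 768 and 859 in long days and at 437, 623 and 1068 in short days. The long-day median was the higher one. The first short-day arrays of ZT2, ZT6, ZT10 and ZT14, at 1030, 1068, 1047 and 1025, nevertheless lay above every long-day array. The difference was 0.08 ± 0.16, between -0.26 and 0.42. Of the regulatory subunits, PRKAR1A was at -0.13 ± 0.19, PRKAR1B at 0.20 ± 0.15 and PRKAR2B at -0.03 ± 0.22.

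The 13 tested A-kinase anchoring proteins had a median of -0.08 and a range of -0.40 to 0.47, with 6 positive. AKAP12, a scaffold at the cell membrane, was at 798, 940.3 and 1194 in long days and at 734, 943 and 1167 in short days, which differed by 0.04 ± 0.09, between -0.14 and 0.22. The medians of AKAP12 were nearly the same. AKAP6, of the nuclear envelope, was at 0.02 ± 0.21, and AKAP9, of the Golgi and centrosome, at -0.16 ± 0.25. AKAP5, a scaffold of synapses, was near background (medians 5.15 in long days and 5.44 in short days) and not tested. AKAP17A stood at -0.34 ± 0.25 and AKAP1, of the outer mitochondrial membrane, at -0.08 ± 0.15.

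The 17 tested RGS genes had a median of 0.05 and a range of -0.29 to 0.44, with 9 positive. RGS16, which acts on Gi and Gq and is known in mammals as a rhythmic gene of the suprachiasmatic clock, was the only one of the 83 (1.2%) with a long-day mean above the short-day mean at all 6 times, beside 2.07% of all probe sets. It was at 63.0, 104 and 117 in long days and at 35.2, 74.1 and 107 in short days. Of its 12 long-day arrays 6 lay above the highest short-day array. The difference was 0.44 ± 0.17, with a 95% interval of 0.10 to 0.78 and an adjusted p of 0.728 by limma. A dimmer probe set of RGS16, above background on 8 long-day and 7 short-day arrays, was at -0.20.

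RGS20, a regulator of Gz and Gi, was at 23.9, 67.5 and 107 in long days and at 33.5, 48.3 and 100.1 in short days, a difference of 0.34 ± 0.22. RGS4 and RGS7, regulators of neuronal Gi, Go and Gq signals, stood at 0.15 ± 0.10 and 0.15 ± 0.13. RGS2, which acts on Gq, was at 0.12 ± 0.19 and RGS9, of photoreceptors and striatum, at -0.23 ± 0.22. The 4 genes of other function lay between -0.31 and 0.12.

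**Figure D2:**
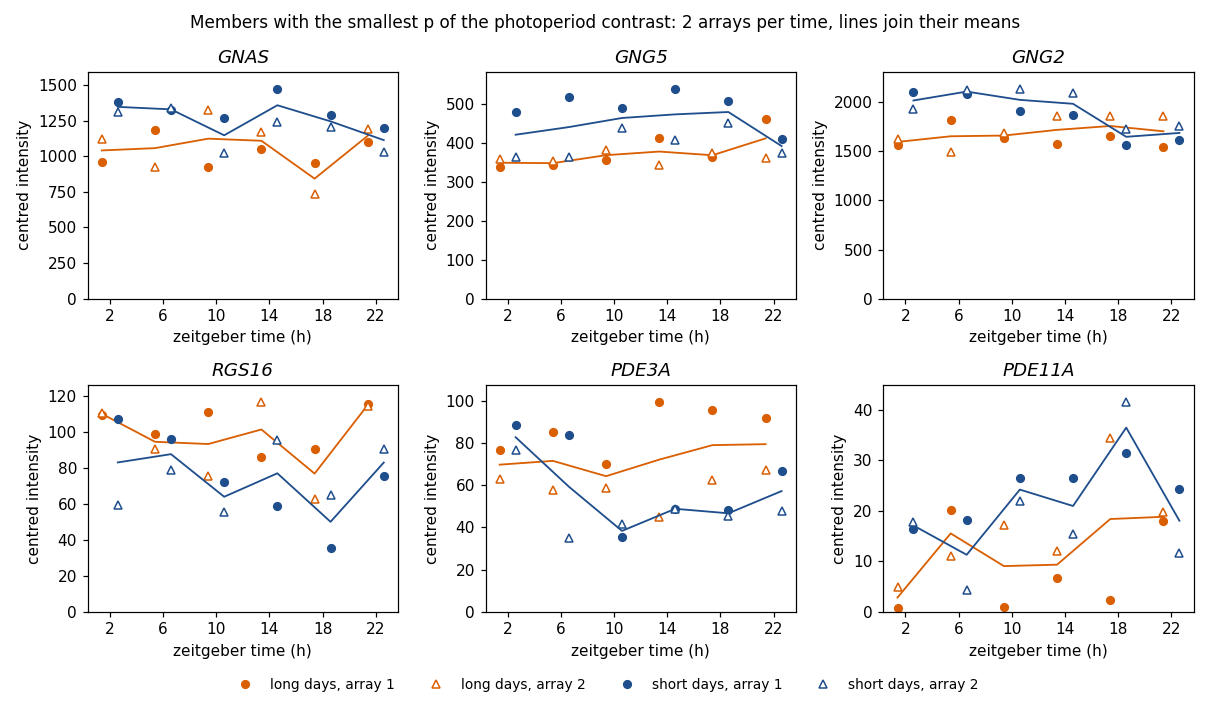
Centred intensity of the 6 genes with an unadjusted p under 0.05 for photoperiod, against ZT in hours; each point is 1 array, and lines join the means of the 2 arrays of a group. Long-day points of RGS16 and PDE3A lie mostly above, and those of GNAS, GNG5 and GNG2 mostly below, the short-day points, with overlap in each; PDE11A lies between 0.82 and 41.5.

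Each photoperiod held 6 arrays numbered 1 and 6 numbered 2, and the difference was computed in each set. Of the 83 genes, 44 (53%) had the same sign in both sets, beside 51.1% of all probe sets. All 6 genes with an unadjusted p under 0.05 were among the 44, which their selection on the mean of both sets favours. The values in the arrays numbered 1 and numbered 2 were 0.53 and 0.35 for RGS16, -0.36 and -0.16 for GNAS, -0.37 and -0.14 for GNG5, -0.18 and -0.18 for GNG2, and 0.53 and 0.29 for PDE3A. Those of PDE11A were -1.94 and -0.12. The widest splits with opposite signs were those of RGS10 (-1.17 and 1.03), PDE4C (-0.77 and 1.09) and RGS9BP (0.32 and -0.94), named after their values were seen.

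**Figure D3:**
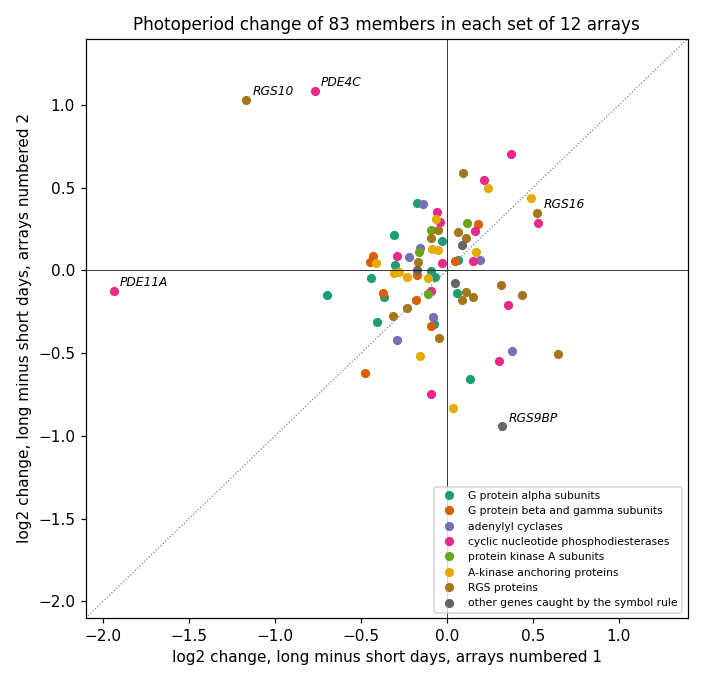
Photoperiod difference (log2, long minus short days) of the 83 genes in the arrays numbered 1 (x axis) and numbered 2 (y axis), coloured by role; the dotted line marks equal values. Points fall in all 4 quadrants, 44 of 83 with the same sign in both sets.

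The second set of comparisons took each time alone, 2 long-day arrays against 2 short-day arrays. No member passed at any time, where the share of all probe sets that passed was 0.00694% (ZT2), 0.0139% (ZT6), 0.0139% (ZT10), 0.0277% (ZT14), 0.0173% (ZT18) and 0.0104% (ZT22). At an unadjusted p under 0.05 there were 2 members at ZT2 (beside 4.08% of all probe sets), 4 members at ZT6 (beside 4.16%), none at ZT10 (beside 4.43%), 4 members at ZT14 (beside 5.41%), 4 at ZT18 (beside 4.12%) and 2 at ZT22 (beside 4.41%). The median SE of a member at a single time was 0.508, beside 0.207 for the mean over times, so only large differences could pass. The median difference of the 83 was -0.05, -0.12, 0.02, -0.09, -0.04 and 0.14 from ZT2 to ZT22, and 37, 31, 43, 32, 41 and 54 were positive. Over all probe sets the medians were -0.03, -0.04, 0.03, -0.05, -0.02 and 0.06.

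**Figure D4:**
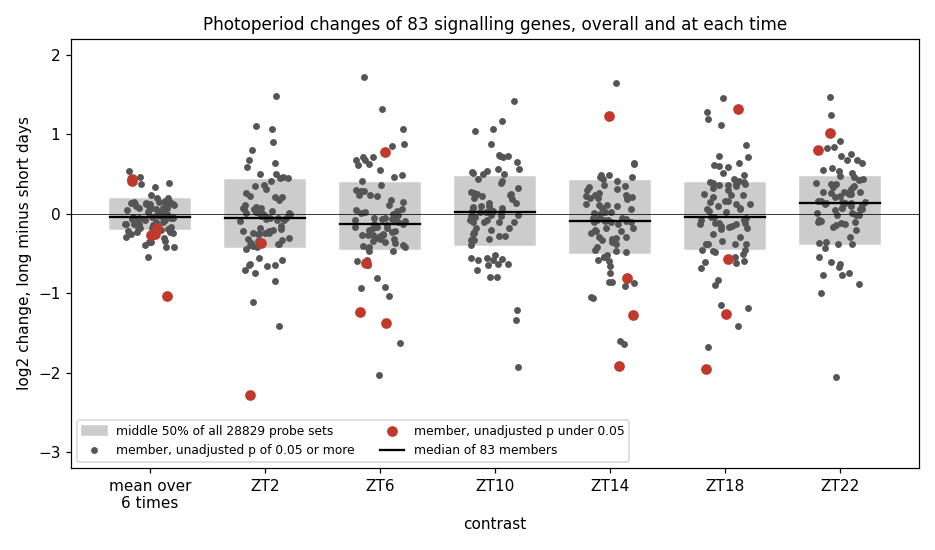
Photoperiod difference (log2, long minus short days) of each of the 83 genes over all times and at each time; grey boxes hold the middle 50% of all 28829 probe sets, black lines mark the members' medians, and red points have an unadjusted p under 0.05. The medians lie between -0.12 at ZT6 and 0.14 at ZT22, inside the grey boxes.

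At ZT14 the smallest p of all members belonged to RGS14, a regulator of Gi known from hippocampal neurons in mammals. It was at 122 and 105 in long days and at 264 and 290 in short days, a difference of -1.28 ± 0.38 (unadjusted p = 0.0029, adjusted p = 0.693 by limma). Both long-day arrays lay below both short-day arrays, which the choice of RGS14 by small p favours. The difference stayed between -1.38 and -1.17 with any of the 4 arrays left out. A dimmer probe set of RGS14, above background on 11 long-day and 10 short-day arrays, was at 0.18 at that time. GNG13, a gamma subunit known from taste and olfactory cells, was at 37.3 and 3.04 in long days and at 54.6 and 43.5 in short days, or -1.92 ± 0.67. That value rested on the second long-day ZT14 array, the one with the lowest correlation: it was -0.37 without it, and -3.47 without the first. PRKAR1A was at 2004 and 536 in long days and at 2358 and 1520.4 in short days at ZT14. Its difference was -1.82 without the first long-day array, which left the second alone. PDE8B was at 93.7 and 74.0 in long days and at 63.0 and 18.8 in short days, or 1.23 ± 0.51, which was 0.39 without the second short-day array.

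At ZT18 RGS9BP, whose product anchors RGS9 at photoreceptor membranes, was at 57.8 and 5.28 in long days and at 68.6 and 85.0 in short days, or -1.96 ± 0.67. This again rested on 1 array: the difference was -0.39 without the second long-day array and -3.52 without the first. GNAS was at 953 and 734 in long days and at 1289 and 1204 in short days, or -0.57 ± 0.23, with both long-day arrays below both short-day arrays. The choice of GNAS by small p favours such a separation. The GNAS difference at ZT18 was -0.39 without the second long-day array. It was -0.19 at the highest of the alternatives that kept all arrays. AKAP17A was at 51.1 and 14.1 in long days and at 80.6 and 55.6 in short days, or -1.26 ± 0.60, and -0.38 without the second long-day array.

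At ZT22 AKAP1 was at 93.3 and 80.3 in long days and at 34.5 and 51.1 in short days, or 1.02 ± 0.37. The regulatory subunit PRKAR1B was at 229 and 265 in long days and at 137 and 144 in short days, or 0.80 ± 0.37. Both long-day arrays were above both short-day arrays in either gene, which their choice by small p favours. With all its probe sets averaged PRKAR1B stood at -0.16 at this time. RGS19, near background at 3.04 and 2.23 in long days and at 11.3 and 21.4 in short days, was at -2.05 ± 0.996.

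At ZT2 the smallest p belonged to PDE11A, at 0.82 and 4.80 in long days and at 16.4 and 17.7 in short days, or -2.28 ± 0.96, on a probe set near background. GNB1 was at 2604 and 2810 in long days and at 3520 and 3442 in short days, or -0.36 ± 0.17. The GNB1 difference was -0.019 at the highest of the alternatives that kept all arrays. GNAI3 was at 223 and 177 in long days and at 131 and 99.1 in short days, or 0.80 ± 0.42. In GNB1 and GNAI3 the pairs of arrays did not overlap, in opposite directions, which their choice by small p favours.

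At ZT6 GNAZ was at 936 and 598 in long days and at 1224 and 1073 in short days, or -0.61 ± 0.24. RGS9 was at 51.7 and 12.5 in long days and at 49.96 and 79.1 in short days, or -1.24 ± 0.53, and GNG11 was at 144 and 139 in long days and at 105 and 64.0 in short days, or 0.77 ± 0.37. Leaving out 1 array moved RGS9 to -0.28 and GNAZ to -0.29 (the second long-day array in both), and GNG11 to 0.42 (the second short-day array). At the highest of the alternatives that kept all arrays RGS9 was at -0.078 and GNAZ at -0.22. The lowest of them for GNG11 was 0.65. At ZT10 the 3 smallest p values were those of RGS4 (0.52 ± 0.26), PDE11A (-1.92 ± 0.96) and PDE4DIP (-0.63 ± 0.35), none under 0.05 before adjustment. RGS4 was at 482 and 512 in long days and at 400.3 and 300.2 in short days there, and its difference was 0.31 without the second short-day array. That of PDE11A was -0.46 without the first long-day array.

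The third set of comparisons asked whether any gene followed the time of day within a photoperiod, or did so differently in long and short days. No member passed the test of any difference between times in long days, where 0% of all probe sets did, or in short days, where 0.0208% did. None passed a 24 h cosine in long days (0% of all probe sets) or in short days (0.0208%), nor the interaction of photoperiod and time (0.00694%). At an unadjusted p under 0.05 there was 1 member for time in long days (3.42% of all probe sets), 1 for time in short days (3.7%), 2 for the cosine in long days (4.03%), 1 for the cosine in short days (4.62%) and 2 for the interaction (3.31%). The median cosine amplitude of the 83 was 0.170 log2 units in long days and 0.219 in short days, beside 0.311 and 0.319 over all probe sets, which include many dimmer ones.

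RGS14 had the smallest p for time of day in long days (F = 4.41, unadjusted p = 0.0060 by limma). Its long-day arrays stood at 278 and 283 (ZT2), 336 and 158 (ZT6), 271 and 205 (ZT10), 122 and 105 (ZT14), 303 and 321 (ZT18), and 358 and 328 (ZT22). The 2 arrays of ZT14 were the lowest of the 12. Without the second of them F was 2.39 (unadjusted p = 0.072 by limma). The fitted long-day cosine reached an amplitude of 0.53 ± 0.17 and peaked at 23.9 h. In short days the same gene was at 264 and 290 at ZT14 and ran from 165 to 353 over the day. The interaction of RGS14 gave F = 2.94 (unadjusted p = 0.035 by limma), which was 1.97 without the second long-day ZT14 array.

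AKAP1 had the smallest p for time of day in short days (F = 3.54, unadjusted p = 0.017 by limma) and for the interaction (F = 3.20, unadjusted p = 0.025 by limma). Its 2 short-day arrays of ZT22, at 34.5 and 51.1, were the lowest of that photoperiod and those of ZT14, at 115 and 118, the highest. In long days it ran from 52.5 to 102. Without the first short-day ZT22 array the F for time in short days was 1.59 (unadjusted p = 0.207 by limma) and that of the interaction 2.06. All adjusted p values of members in these 5 tests were near 1, and the smallest was 0.9997 by limma.

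PDE4D, a phosphodiesterase of cyclic AMP, had a long-day cosine amplitude of 0.68 ± 0.24 that peaked at 19.6 h. Its amplitude was 0.53 without the second long-day ZT6 array, 0.90 without the first, and 0.35 at the lowest of the alternatives that kept all arrays. Its long-day arrays of ZT18, at 493 and 430, were brighter than its short-day arrays of that time, at 126 and 269. The 2 arrays of a group differed widely elsewhere, as at long-day ZT14 with 454 and 74.1. GNAI3 had a long-day amplitude of 0.42 ± 0.16 with a peak at 22.7 h (unadjusted p = 0.054 by limma). That of GNAZ was 0.25 ± 0.10 with a peak at 20.3 h (unadjusted p = 0.055 by limma). For GNG13 the long-day amplitude was 0.70 ± 0.28 (unadjusted p = 0.058 by limma), or 0.35 without the second long-day ZT14 array. The F of GNG13 for time in long days was 2.48, or 0.74 without that array. For time in long days RGS2 had F = 2.24, RGS9BP 2.21 and GNAI3 1.98. The value of RGS9BP was 0.16 without the second long-day ZT18 array and 8.05 without the first. That of GNAI3 was 1.43 without the first long-day ZT2 array and 4.26 without the first long-day ZT14 array.

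In short days the cosine with the smallest p was that of GNG2, with an amplitude of 0.18 ± 0.07 and a peak at 7.48 h (unadjusted p = 0.047 by limma). Its short-day arrays ran from 1569 at ZT18 to 2140.0 at ZT10. Next by p came RGS3 (0.48 ± 0.20), AKAP12 (0.19 ± 0.08), PRKAR2B (0.45 ± 0.20) and PDE3A (0.38 ± 0.17). GNAQ, PRKAR1B, GNAZ and PDE4B followed AKAP1 in the test of time in short days, with F of 2.47, 1.88, 1.78 and 1.78. For GNAQ the 2 short-day arrays of ZT10 stood at 49.4 and 7.0, so a single array was far below the others. Over the omissions of 1 array F ran from 1.81 to 5.69 for GNAQ, from 1.41 to 6.18 for PRKAR1B and from 0.49 to 3.38 for PDE4B. The highest F of each was reached without the first short-day ZT10 array, and the lowest without the second for GNAQ and PDE4B and without the second short-day ZT6 array for PRKAR1B.

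**Figure D5:**
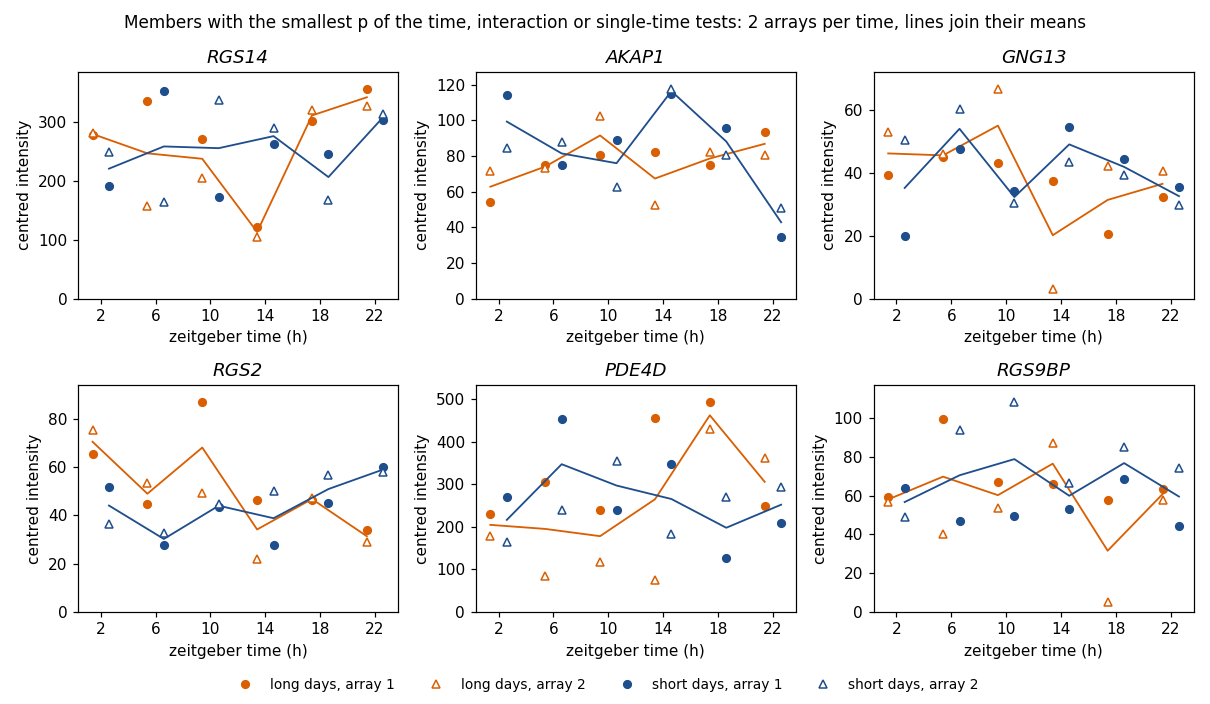
Centred intensity of 6 of the genes named for small p values in the tests of time, interaction or single times, against ZT in hours. Each point is 1 array, and lines join the means of the 2 arrays of a group. RGS14 is lowest at long-day ZT14 on both arrays, while the low means of GNG13 at long-day ZT14 and RGS9BP at long-day ZT18 each come from 1 array, at 3.04 and 5.28.

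A list of 44 further genes of the pathway outside the symbol rule (the thyrotropin receptor, exchange factors, transcription factors, kinase inhibitors, receptor kinases, arrestins and channels) was read in the same fits. Of the 31 measured genes 30 were tested, none passed any of the 12 tests, and 4 had an unadjusted p under 0.05 for photoperiod, beside 5.42% of all probe sets. The median difference of the 30 was -0.04 and 13 were positive. CREM, a transcription factor that binds cyclic AMP response elements and whose ICER forms are induced by cyclic AMP, averaged 309 ± 56.4 in long days and 226 ± 30.9 in short days (SD, n = 12 each), or 0.44 ± 0.11 with an adjusted p of 0.256 by limma. PKIA, an inhibitor of protein kinase A, averaged 1235 ± 164 on long-day arrays and 1475 ± 205 on short-day arrays (SD), or -0.25 ± 0.10. TSHR, the thyrotropin receptor itself, averaged 49.1 ± 18.5 on long-day arrays and 71.0 ± 21.7 on short-day arrays (SD), or -0.56 ± 0.22 (adjusted p = 0.775 by limma). FOS, an immediate early gene, averaged 17.6 ± 7.89 on long-day arrays and 11.5 ± 7.51 on short-day arrays (SD), above background on 7 of 12 long-day and 2 of 12 short-day arrays, or 0.78 ± 0.36.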

How the data were processed

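Biotin-labelled cRNA from 5 ug of total RNA of mediobasal hypothalamus was hybridised to an Affymetrix chicken array. The deposited unit is intensity, one linear value per probe set and array, made by the authors with GCOS 1.2, per the submitters' processing notes; settings and scaling not given in the sources used here. From the intensity values, log2(intensity + 1.497) was computed, the pseudocount being 10% of the median deposited value, and each array was centred on its median. The pseudocount shrinks intensity ratios of dim genes, but their differences also moved widely with the processing. Over the alternatives that kept all arrays, RGS19 at ZT22 ran from -2.17 to -0.73. GNG13 at ZT14 ran from -2.01 to -0.97 and RGS9BP at ZT18 from -2.03 to -1.18. The 96 control probe sets and the lowest 25% of the other 38439 by mean were left out. Background was set per array at the 95th percentile of 746 probe sets without the chicken prefix.

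Symbols follow the platform annotation and can be out of date; 81 of the 88 occur in the gene table of Coturnix japonica. A gene was read on its brightest probe set; 21 of these carry names (_s_at, _a_at or _x_at) of sets that can match related transcripts. The 88 genes have 210 probe sets, 173 of them tested. No coordinates are printed, as the probes are from chicken.

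A mean for each of the 12 groups was fitted with limma 3.58.1 in R 4.3.3 (lmFit, eBayes with trend, 12 residual degrees of freedom before moderation), and a second model fitted a 24 h cosine in each photoperiod. The ± of a cosine amplitude is an approximate SE derived from its cosine and sine terms, while its p is that of an F test of both. Benjamini-Hochberg adjustment covered all 28829 probe sets tested, and an adjusted p under 0.05 counted as passing. Per the labels the 2 arrays of a group are biological replicates, each a pool of birds. The p-values rest on the spread between such arrays, which includes any offset between those numbered 1 and those numbered 2. In GNAI1, picked for its values, the first array of every group was the brighter, as at short-day ZT2 with 2167 and 917. Same-numbered arrays were not from the same birds, and no block was used in the main fit. The differences between the 2 arrays of a group correlated weakly but positively in all 66 pairs of groups. The r ran from 0.010 to 0.103 with a median of 0.045, and was above 0.1 in 3 pairs. An offset shared by arrays of the same number is thus not removed, and a fit with a block is among the alternatives.

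Named were the 10 genes with the smallest p for photoperiod, the 3 at each time, the 5 in each time of day, cosine and interaction test, and 33 names of the thyrotropin route, of which 29 are measured. The symbol rule used no measured values, but the genes and lists were chosen with earlier results of these data known. The fits were tested on simulated data. Alternatives were a pseudocount of 16, quantile normalization, no centring, no filter or the lowest 50% left out, no variance trend, the mean over all probe sets of a gene, a replicate block, each array left out, and the arrays of each number alone. Figures were drawn with matplotlib 3.10.9.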

Additional observations from a re-analysis of the deposited data

How the results depend on the processing

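Among the alternatives run, a member passed a test only where 1 array was left out: GNG13 and PRKAR1A at ZT14 (0 to 2 calls over the omissions) and GNG13 for time of day in long days (0 to 1) without the first long-day ZT14 array, and RGS9BP at ZT18 (0 to 1) without the first long-day ZT18 array. A group left with 1 array is assumed to vary like the others. Counts over all probe sets also moved with single arrays left out, as given below. Of 53 signed values of named genes, 32 kept their sign in every alternative that gave them, 31 to 34 each: the array numbers alone gave only the photoperiod mean, and the filter that leaves out the lowest 50% removed PDE7B and RGS19. With the mean over all probe sets of a gene, the photoperiod difference was 0.26 for GNB1, -0.071 for ADCY8, -0.16 for PRKAR1B (also at ZT22), 0.023 for PRKAR2B, -0.020 for PDE4B, 0.15 for PDE4D, -0.47 for PDE7B, 0.13 for PDE10A, -0.12 for AKAP12 and 0.10 for RGS9, each of the other sign. Further signs turned in the arrays numbered 1 alone, for GNAQ (-0.18), GNA11 (-0.028), GNAI3 (0.056), ADCY8 (-0.14), PRKACB (-0.092), PDE4B (-0.028), PDE4D (0.30), PDE7B (-0.040), AKAP6 (-0.087) and AKAP12 (-0.049). In those numbered 2 alone they turned for GNAL (0.035), ADCY9 (0.14), PRKAR2B (0.11) and RGS2 (-0.085). A pseudocount of 16 gave -0.00023 for GNAQ and -0.0068 for PDE4B, and no centring -0.025 for PDE4B and -0.0097 for AKAP6. With single arrays left out the signs that turned were those of GNAQ (-0.10 to 0.33), GNAI3 (-0.16 to 0.082), ADCY2 (-0.0037 to 0.26), ADCY9 (-0.11 to 0.085), PRKACB (-0.027 to 0.18), PRKAR1A (-0.28 to 0.033), PRKAR2B (-0.16 to 0.11), PDE4B (-0.068 to 0.083), PDE4D (-0.34 to 0.093), PDE7B (-0.058 to 0.31) and AKAP6 (-0.12 to 0.16). The cause was not tested.

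Counts over all probe sets moved more. For the photoperiod mean, 38 became 74 with quantile normalization, 12 with no centring and 16 in the arrays numbered 2 alone, and ran from 32 to 46 with 1 array left out. With quantile normalization the counts at ZT2, ZT6 and ZT10 were 11, 7 and 9. With no centring those from ZT2 to ZT18 were 1, 1, 2, 3 and 2, with 0 for time in short days, 2 for its cosine and 0 for the interaction. A pseudocount of 16 gave 1, 2, 3 and 3 from ZT6 to ZT18, 3 for time in short days, 3 for its cosine and 0 for the interaction, and no variance trend 1, 2, 2, 2, 3, 2 and 0 in the same tests. The mean over all probe sets of a gene gave 1 at ZT2 and 3 for the short-day cosine. With single arrays left out the ranges were 2 to 27 (ZT2), 1 to 17 (ZT6), 3 to 72 (ZT10), 2 to 344 (ZT14), 3 to 7 (ZT18) and 3 to 20 (ZT22), then 0 to 93 and 5 to 36 for time in long and short days, and 2 to 32 for the interaction. A fit with the array number as a replicate block gave 76 for the photoperiod mean, 8 at each of ZT2, ZT6 and ZT10, 6 at ZT22, and 11 for both time in short days and its cosine, and still no member passed. The numbers do not pair the birds, though the arrays numbered 1 were the brighter ones before centring. This fit is given once, as an alternative. The count of members at an unadjusted p under 0.05 for photoperiod ran from 1 to 13 over the alternatives. The matching shares of all probe sets were not computed, so this range cannot be read as particular to the members.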

Other observations

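Several members have more than 1 probe set, and 28 of the 45 with a further tested probe set had the same sign of the photoperiod difference on both. The matching share over all genes was not computed. Over all 173 tested probe sets of members none passed limma's photoperiod test, beside 0.132% of all probe sets, and 13 (7.51%) had an unadjusted p under 0.05, beside 5.42%. Those named here were picked for their values. A second probe set of PDE4D, above background on every array, was at 141, 237 and 331 in long days (lowest, median and highest) and at 140, 182 and 245 in short days, a difference of 0.42 ± 0.13 that was positive at all 6 times (adjusted p = 0.506 by limma). Its value was 0.47 in the arrays numbered 1 and 0.37 in those numbered 2, while the brighter probe set was at -0.12. A second probe set of PDE9A was at 19.2, 27.7 and 41.7 in long days and at 8.66, 17.8 and 27.9 in short days, above background on 12 long-day and 5 short-day arrays, a difference of 0.72 ± 0.24 (adjusted p = 0.607 by limma). A second one of ADCY8 was at 0.51 ± 0.20 and one of PDE10A at 0.37 ± 0.16. Which transcript forms these probe sets match in quail was not tested.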
